A study of Saccharomyces cerevisiae with 16 samples.

Results

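The genes of the outer kinetochore were followed through meiotic induction in WT and *ime2Δ* cells of budding yeast. The members were taken by name, as subunits of known complexes: *NDC80*, *NUF2*, *SPC24*, and *SPC25* of the Ndc80 complex, *MTW1*, *NSL1*, *DSN1*, and *NNF1* of the Mtw1 complex, and *DAM1* and *HSK3* of the Dam1 complex. Of these 10 genes, 9 were matched to a probe by systematic name, out of 6256 genes on the array, and *HSK3* was not analysed here. WT was strain DSY1089. The mutant was YGB221, in which both copies of *IME2*, encoding a meiosis-specific protein kinase, are replaced by *TRP1*. Both are SK1 diploids that share insertions of *hisG* in *trp1* and *leu2*, of *LYS2* in *ho*, and mutations in *lys2*, *ura3*, *arg4*, and *his4*. Only the mutant thus carries an intact *TRP1* gene. Cells pre-grown for sporulation were moved to sporulation medium and collected after 0, 2, 4, and 6 h. Each of the 8 combinations of strain and time was measured on 2 arrays, which hold biological replicates.

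The kinetochore joins each chromosome to spindle microtubules. In budding yeast, the Ndc80 complex is a rod whose Ndc80 and Nuf2 heads bind the microtubule and whose Spc24 and Spc25 end binds the Mtw1 complex, which in turn sits on inner kinetochore proteins at the centromere. The Dam1 complex encircles the microtubule and strengthens the hold of Ndc80. In meiotic prophase of yeast the outer kinetochore is taken apart and then rebuilt before the divisions, and *NDC80* is known to be transcribed both as its coding mRNA and as a 5′-extended, poorly translated transcript from an upstream promoter. Each gene had 1 probe here, which gives 1 value per gene, and the transcript isoforms were not told apart.

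Levels below are log2 signal relative to the median gene of the same array, so 0 is the level of the median gene, and levels of different genes were not set against each other. All 9 genes were well above background on all 16 arrays. Across the arrays, 94.93% to 98.29% of genes were well above background. *IME2* was well above background on 0 of 8 *ime2Δ* arrays, and its WT signal exceeded the lowest signal called well above background in the mutant at least 3660-fold at 0 h, rising to at least 28800-fold at 6 h. *TRP1* had levels of 0.49 to 1.63 on the *ime2Δ* arrays and of -1.55 to 0.41 on the WT arrays, where it was still well above background. *IME1*, the transcription factor of meiotic entry, lay between 3.66 and 5.16 on all arrays, rose in *ime2Δ* by 1.06 from 0 to 6 h (adjusted p = 0.00144), and was lower in WT at 6 h (-0.86, adjusted p = 0.00423). *NDT80*, the transcription factor of the meiotic divisions, climbed in WT to a mean level of 2.40 by 4 h and 5.12 by 6 h, against -0.99 and -0.63 in the mutant. Replicates 1 and 2 were hybridized on separate slides of 8 arrays each, on which the strains lay in separate columns and the times in separate positions, so strain and slide column cannot be told apart, nor can time and slide position.

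The subunits followed several courses in WT. *NDC80* rose in every interval and *DSN1* from 2 to 6 h, *SPC24* and *MTW1* rose by 2 h and did not pass the test after that, *NNF1* and *DAM1* were high at 2 and 4 h only, and *SPC25* and *NSL1* rose between 4 and 6 h. In *ime2Δ* cells *NDC80*, *SPC24*, and *MTW1* rose less than 2-fold over 6 h, and *SPC25*, *NSL1*, and *NNF1* fell. Of these changes over 6 h, those of *NDC80*, *SPC25*, and *NSL1* passed in every alternative processing given below. Those of *SPC24*, *MTW1*, and *NNF1* did not. RNA came from whole cultures, so fewer cells at a stage and less RNA per cell cannot be told apart.

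**Figure D1:**
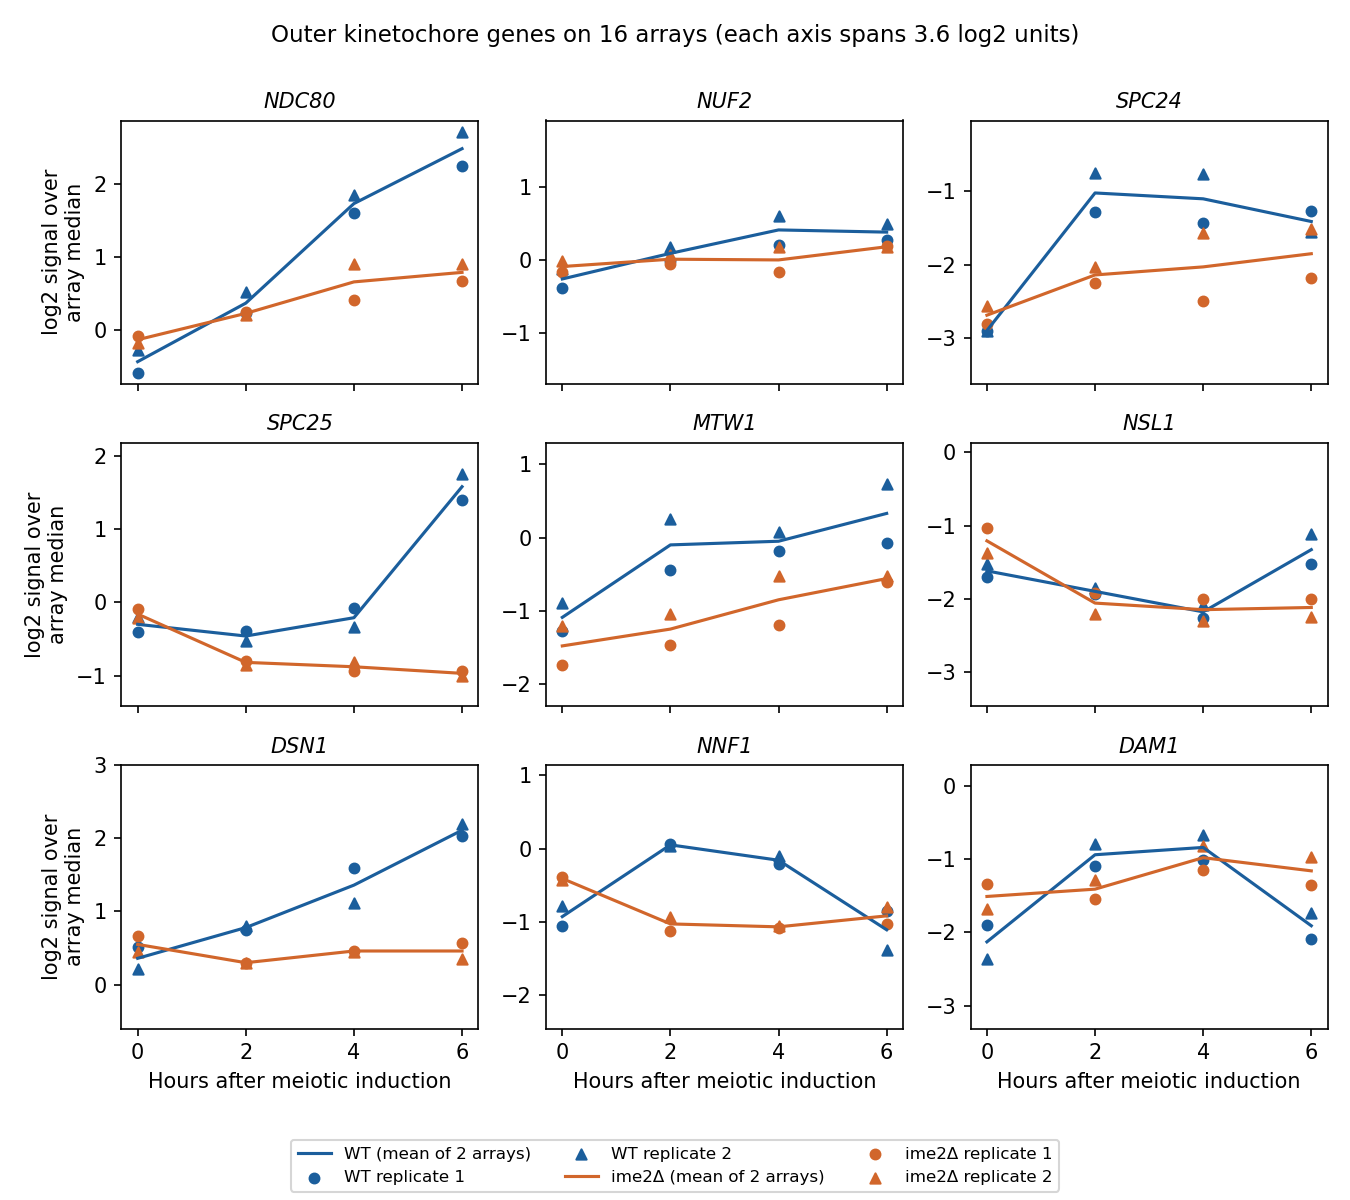
Level of each of the 9 genes against hours after meiotic induction, as log2 signal over the array median, with 1 point per array (circle, replicate 1, triangle, replicate 2) and lines through the means of 2 arrays, WT in blue and *ime2Δ* in orange. *SPC25* in WT lay between -0.53 and -0.08 up to 4 h and at 1.40 and 1.76 at 6 h, while *NDC80* climbed at every step.

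*NDC80* encodes the subunit that names the complex and that makes much of its contact with microtubules. Its level in WT was -0.58 and -0.27 on the 2 arrays at 0 h, 0.23 and 0.52 at 2 h, 1.60 and 1.85 at 4 h, and 2.24 and 2.71 at 6 h. In *ime2Δ* it was -0.08 and -0.18 at 0 h, 0.25 and 0.21 at 2 h, 0.41 and 0.90 at 4 h, and 0.67 and 0.91 at 6 h. The WT arrays of successive times did not overlap, and WT lay above *ime2Δ* at 4 and 6 h on every array. Ordered by mean level, WT at 6 h (2.48) came first and WT at 4 h (1.73) second, each clear of the next group, whereas *ime2Δ* at 6 h (0.79), *ime2Δ* at 4 h (0.66), WT at 2 h (0.37), and *ime2Δ* at 2 h (0.23) overlapped with their neighbours in that order. *NDC80* rose in all 3 WT intervals, by 0.80 ± 0.22 (log2, SE) from 0 to 2 h (adjusted p = 0.00888), by 1.36 ± 0.22 from 2 to 4 h (adjusted p = 0.000829), and by 0.75 ± 0.22 from 4 to 6 h (adjusted p = 0.0117). The call for the last interval was lost when arrays were scaled to their 75th percentile (0.51, adjusted p = 0.0566) or by quantiles (0.42, adjusted p = 0.105), and without WT 4 h replicate 1 (0.62, adjusted p = 0.081) or WT 6 h replicate 2 (0.52, adjusted p = 0.116). In *ime2Δ* the rise from 0 to 6 h was 0.92 ± 0.22 (1.89-fold, adjusted p = 0.00333). The 2 spots of the probe differed by up to 0.83 on an array.

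*NUF2* encodes the partner of Ndc80 in the microtubule-binding heads. Its levels in WT were -0.39 and -0.13 at 0 h, -0.01 and 0.18 at 2 h, 0.21 and 0.60 at 4 h, and 0.27 and 0.49 at 6 h. Those in *ime2Δ* were -0.17 and -0.01, -0.05 and 0.07, -0.17 and 0.17, and 0.19 and 0.17 at the same times. Each WT time up to 4 h lay above the one before, and 4 and 6 h overlapped. The means spanned 0.67 in WT and 0.27 in *ime2Δ*, and *NUF2* passed the test in none of the 11 comparisons. At an unadjusted p under 0.05 it differed in 1 of them, the strains at 4 h, by 0.41 ± 0.19 (adjusted p = 0.117). Scaled to the 75th percentile, its change passed from 0 to 2 h in WT (0.61, adjusted p = 0.0171) and from 0 to 6 h in *ime2Δ* (0.53, adjusted p = 0.0297). Its spots differed by at most 0.31.

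*SPC24* and *SPC25* encode the pair of subunits at the inner end of the rod, and they moved at different times. *SPC24* in WT was at -2.90 and -2.91 at 0 h, -1.28 and -0.75 at 2 h, -1.43 and -0.76 at 4 h, and -1.27 and -1.55 at 6 h. In *ime2Δ* it was at -2.81 and -2.57, -2.25 and -2.03, -2.49 and -1.57, and -2.18 and -1.51 at those times. WT arrays from 2 h on lay well above those at 0 h and overlapped one another. *SPC24* rose by 1.89 ± 0.32 (3.70-fold) from 0 to 2 h in WT (adjusted p = 0.000427) and by 0.84 ± 0.32 from 0 to 6 h in *ime2Δ* (adjusted p = 0.0416). The latter call did not hold in 10 of the 26 alternative settings, among them the first spot of the probe alone (0.51, adjusted p = 0.302), any *ime2Δ* array of 0 h left out (0.72 and 0.96, adjusted p = 0.169 and 0.0747), *ime2Δ* 6 h replicate 2 left out (0.51, adjusted p = 0.286), or any array of WT at 0 h or *ime2Δ* at 2 h left out (0.84, adjusted p = 0.0519 and 0.0503). The 2 spots differed by up to 1.42, on WT 4 h replicate 1.

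*SPC25* stayed at -0.41 and -0.20 at 0 h, -0.39 and -0.53 at 2 h, and -0.08 and -0.34 at 4 h in WT, and then reached 1.40 and 1.76 at 6 h. In *ime2Δ* it went from -0.09 and -0.22 at 0 h to -0.80 and -0.85 at 2 h, -0.94 and -0.81 at 4 h, and -0.94 and -1 at 6 h. The strains overlapped at 0 h and at no later time, and every *ime2Δ* array after 0 h lay below every WT array. The WT rise from 4 to 6 h was 1.79 ± 0.17 (3.46-fold, adjusted p = 2.96e-06). In *ime2Δ*, *SPC25* fell by 0.66 by 2 h (SE 0.17, adjusted p = 0.00745) and by 0.81 by 6 h (SE 0.17, adjusted p = 0.00138). The earlier fall missed the threshold under 75th percentile scaling (-0.41, adjusted p = 0.0571) and without *ime2Δ* 0 h replicate 1 (-0.60, adjusted p = 0.0504).

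The 4 genes of the Mtw1 complex, the bridge between the inner kinetochore and the Ndc80 complex, also differed in course. *MTW1* in WT was at -1.28 and -0.90 at 0 h, -0.44 and 0.25 at 2 h, -0.18 and 0.07 at 4 h, and -0.08 and 0.73 at 6 h. In *ime2Δ* it was at -1.74 and -1.21, -1.47 and -1.04, -1.19 and -0.52, and -0.61 and -0.52. The strains overlapped at 0 h and were apart at 2, 4, and 6 h, with WT higher. *MTW1* rose by 0.99 ± 0.33 (1.99-fold) from 0 to 2 h in WT (adjusted p = 0.0232) and by 0.91 ± 0.33 from 0 to 6 h in *ime2Δ* (adjusted p = 0.0314). Its spots differed by up to 0.84. Using the first spot alone, the changes were 0.95 and 0.96 and missed the threshold (adjusted p = 0.0788 and 0.0695).

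*DSN1*, whose product is a target of the Aurora B kinase in yeast, had WT levels of 0.52 and 0.21 at 0 h, 0.75 and 0.80 at 2 h, 1.60 and 1.12 at 4 h, and 2.03 and 2.19 at 6 h. In *ime2Δ* it stayed between 0.30 and 0.66 on all 8 arrays. No WT array of one time overlapped with the next, and WT was above *ime2Δ* on every array from 2 h on. The WT change from 0 to 2 h was 0.41 ± 0.19 (adjusted p = 0.0808), and passed under 75th percentile scaling (0.67, adjusted p = 0.00837) and quantile normalization (0.54, adjusted p = 0.0267). The later WT rises were 0.58 ± 0.19 from 2 to 4 h (adjusted p = 0.0347) and 0.75 ± 0.19 from 4 to 6 h (adjusted p = 0.0047). The former did not hold after normexp background correction (0.59, adjusted p = 0.0703), in a fit to the compared groups alone (adjusted p = 0.108), with the first spot only (0.56, adjusted p = 0.0636), or without WT 2 h replicate 1 or 2 (0.56 and 0.61, adjusted p = 0.157 and 0.103) or WT 4 h replicate 1 (0.35, adjusted p = 0.256). The latter was at 0.52 with an adjusted p of 0.0506 without WT 4 h replicate 2.

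*NNF1* was high in WT at 2 and 4 h alone. It went in WT from -1.06 and -0.79 at 0 h to 0.06 and 0.04 at 2 h and -0.21 and -0.10 at 4 h, and back to -0.85 and -1.38 at 6 h. In *ime2Δ* it went the other way over the first interval, from -0.39 and -0.43 at 0 h to -1.12 and -0.94 at 2 h, and was at -1.08 and -1.06 at 4 h and -1.03 and -0.80 at 6 h. The WT arrays at 2 and 4 h lay above all other arrays of both strains, and the WT arrays at 0 and 6 h overlapped. *NNF1* rose in WT by 0.98 ± 0.19 by 2 h (adjusted p = 0.000914) and fell by 0.96 between 4 and 6 h (SE 0.19, adjusted p = 0.00107). In *ime2Δ* it fell by 0.62 from 0 to 2 h (SE 0.19, adjusted p = 0.0185), a call that did not hold under 75th percentile scaling (-0.36, adjusted p = 0.16), under normexp (-0.50, adjusted p = 0.0817), or without *ime2Δ* 0 h replicate 1 or 2 (-0.60 and -0.64, adjusted p = 0.076 and 0.0601) or *ime2Δ* 2 h replicate 1 (-0.53, adjusted p = 0.116).

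*NSL1* had WT levels of -1.71 and -1.53 at 0 h, -1.94 and -1.86 at 2 h, -2.26 and -2.09 at 4 h, and -1.53 and -1.12 at 6 h. In *ime2Δ* it went from -1.04 and -1.37 at 0 h to -1.92 and -2.21 at 2 h, -2.01 and -2.30 at 4 h, and -2.00 and -2.25 at 6 h. The WT levels at 6 h were thus above those at 2 and 4 h and at or above those at 0 h, and the *ime2Δ* levels after 0 h all lay below those at 0 h. The WT rise from 4 to 6 h was 0.85 ± 0.20 (adjusted p = 0.0035). In *ime2Δ*, *NSL1* fell by 0.86 by 2 h (SE 0.20, adjusted p = 0.00446) and by 0.92 by 6 h (SE 0.20, adjusted p = 0.00184).

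*DAM1* encodes a subunit of the Dam1 ring that contacts Ndc80. It was at -1.90 and -2.36 at 0 h in WT, -1.09 and -0.79 at 2 h, -1.01 and -0.67 at 4 h, and -2.09 and -1.73 at 6 h. In *ime2Δ* it was at -1.34 and -1.68, -1.54 and -1.29, -1.15 and -0.82, and -1.35 and -0.97. WT arrays at 2 and 4 h were all above those at 0 and 6 h, and *ime2Δ* was above WT at 0 and 6 h on every array. *DAM1* rose in WT by 1.19 ± 0.23 (2.28-fold) from 0 to 2 h (adjusted p = 0.00117) and fell by 1.07 from 4 to 6 h (SE 0.23, adjusted p = 0.00227). In *ime2Δ* the change from 0 to 6 h was 0.34 ± 0.23 (adjusted p = 0.236), and it passed under 75th percentile scaling (0.61, adjusted p = 0.0469).

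Counted over the members, the WT changes were largest in number in the first and the last interval, as were those over all genes. Of 6254 genes, 3091, 1629, and 3448 were called in the 3 successive intervals. From 0 to 2 h, 5 of 9 members rose (*NDC80*, *SPC24*, *MTW1*, *NNF1*, and *DAM1*) and 0 fell, beside 22.2% of all genes higher and 27.2% lower, and the median change was 0.80 over the members and -0.10 over all genes. Under 75th percentile scaling *NUF2* and *DSN1* passed too, for 7 members, and under quantile normalization *DSN1*, for 6. Without WT 0 h replicate 1 or WT 2 h replicate 2, *NDC80* (0.64 and 0.65) and *MTW1* (0.80 and 0.65) did not pass, and fewer of all genes passed too. From 2 to 4 h, 2 of 9 rose (*NDC80* and *DSN1*) and 0 fell, beside 14.1% and 12% of all genes, with medians of 0.10 and 0.04. From 4 to 6 h, 4 of 9 rose (*SPC25*, *NSL1*, *NDC80*, and *DSN1*) and 2 fell (*NNF1* and *DAM1*), beside 26.4% and 28.7% of all genes, with medians of 0.38 and -0.15. The share of members that rose in the second interval, and that fell in the last, was close to that of all genes.

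In *ime2Δ*, 0 of 9 members rose from 0 to 2 h and 3 fell (*SPC25*, *NSL1*, and *NNF1*), beside 17.6% and 22.1% of all genes, with medians of 0.09 and -0.06. Without *ime2Δ* 0 h replicate 1, *NSL1* alone passed. Under 75th percentile scaling *NSL1* alone was lower, *SPC25* and *NNF1* were lost, and *NDC80* was higher (0.62, adjusted p = 0.0356). By 6 h, 3 of 9 were higher than at 0 h (*NDC80*, *SPC24*, and *MTW1*) and the same 3 were lower, beside 24.5% and 30.1% of all genes, with medians of 0.26 and -0.10, shares close to those of all genes. Only 3 passed without *ime2Δ* 0 h replicate 1, with *SPC24* at 0.72, *MTW1* at 0.65, and *NNF1* at -0.49 (adjusted p = 0.169, 0.202, and 0.112). *MTW1* and *NNF1* also missed the threshold without *ime2Δ* 6 h replicate 1 (0.96 and -0.39, adjusted p = 0.0812 and 0.189), *MTW1* without *ime2Δ* 6 h replicate 2 (0.86, adjusted p = 0.108), and *NNF1* without *ime2Δ* 0 h replicate 2 (-0.53, adjusted p = 0.0882). *NNF1* was at -0.24 under 75th percentile scaling (adjusted p = 0.322), at -0.44 after normexp (adjusted p = 0.1), at -0.51 in a fit to the compared groups alone (adjusted p = 0.0719), and at -0.37 with its second spot (adjusted p = 0.0812). *MTW1* missed the threshold under quantile normalization (0.71, adjusted p = 0.0777). With the 75th percentile in place of the median, the middle of all genes shifted by 0.26 in the first interval of both strains, by 0.27 from 0 to 6 h in *ime2Δ*, and by -0.24 from 4 to 6 h in WT. Of the genes called, the share that was higher went with it from 45% to 63.9% (WT, 0 to 2 h), from 44.4% to 66.8% (*ime2Δ*, 0 to 2 h), from 44.9% to 62.1% (*ime2Δ*, 0 to 6 h), and from 47.9% to 34.4% (WT, 4 to 6 h).

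**Figure D2:**
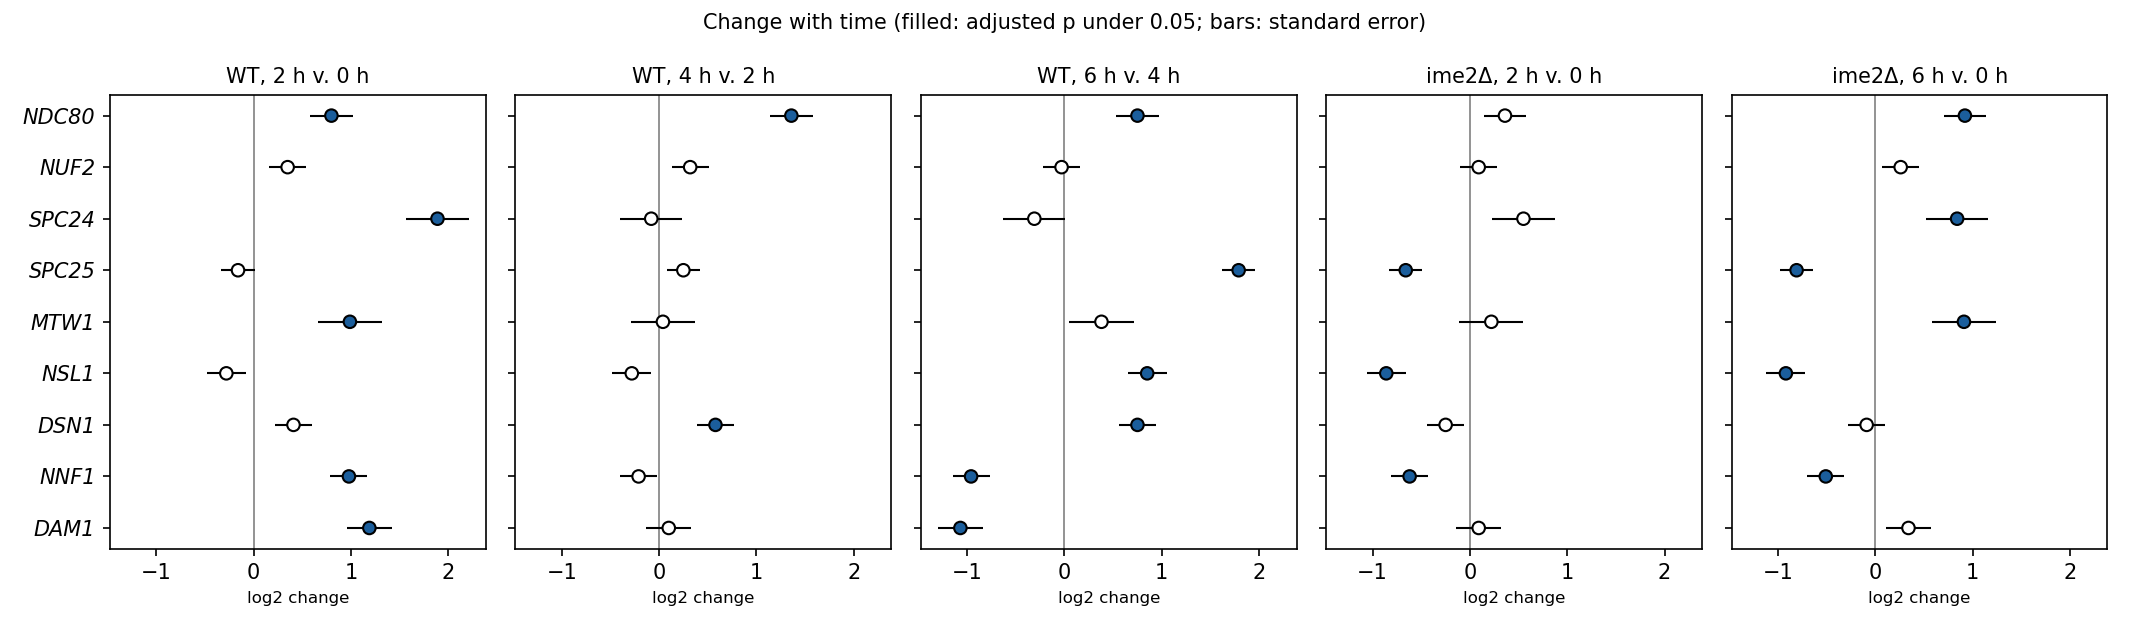
Log2 change of each gene in 3 successive intervals of WT and in 2 intervals of *ime2Δ*, with standard errors from the fit to all 16 arrays; filled points passed an adjusted p of 0.05. In WT *SPC24* had the largest rise of the first interval (1.89) and *SPC25* that of the last (1.79), and *NNF1* and *DAM1* went from rises to falls of 0.96 and 1.07.

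The strains were then compared at each time. At 0 h, 0 of 9 members passed the limma test, beside 3.26% of all genes higher in WT and 1.41% lower, and 2 had an unadjusted p under 0.05. These were *NNF1* (-0.52 ± 0.19, adjusted p = 0.135) and *DAM1* (-0.62 ± 0.23, adjusted p = 0.151), both lower in WT on both arrays. The median was -0.22 over the members and 0.01 over all genes. Quantile normalization took the share of called genes that was higher in WT from 69.9% to 54.5% at this time.

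At 2 h, 3 of 9 members were higher in WT and 0 lower, beside 9.05% and 4.54% of all genes, with medians of 0.47 and -0.03. *MTW1* was higher by 1.16 ± 0.33 (2.23-fold, adjusted p = 0.0333), *SPC24* by 1.12 ± 0.32 (2.18-fold, adjusted p = 0.0364), and *NNF1* by 1.08 ± 0.19 (2.11-fold, adjusted p = 0.00175). Among these, *NNF1* alone passed in every alternative setting. *MTW1* and *SPC24* missed the threshold after normexp (adjusted p = 0.0583 and 0.0909), with either spot alone, without *ime2Δ* 2 h replicate 1 (0.94 and 1.01, adjusted p = 0.266 and 0.23), and without WT 2 h replicate 2 (0.81 and 0.86, adjusted p = 0.292 and 0.275), and *SPC24* without *ime2Δ* 2 h replicate 2 (1.23, adjusted p = 0.0761). *NDC80*, which later differed between the strains, was at 0.23 and 0.52 in WT and at 0.25 and 0.21 in *ime2Δ*, so the arrays overlapped.

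At 4 h, 5 of 9 were higher in WT and 0 lower, beside 16.9% and 14.2% of all genes, with medians of 0.80 and -0.01. All 3 of *NDC80* (1.07 ± 0.22, 2.10-fold, adjusted p = 0.00265), *NNF1* (0.91 ± 0.19, adjusted p = 0.00267), and *DSN1* (0.90 ± 0.19, adjusted p = 0.0028) passed in every alternative. *SPC25* (0.67 ± 0.17, adjusted p = 0.00941) was lost without WT 4 h replicate 1 (0.54, adjusted p = 0.0715) or *ime2Δ* 4 h replicate 1 (0.60, adjusted p = 0.0798). *SPC24* was higher by 0.93 ± 0.32 (adjusted p = 0.0434), and its difference was 0.36 with the second spot alone (adjusted p = 0.526), 0.47 without *ime2Δ* 4 h replicate 1 (adjusted p = 0.398), and 0.60 without WT 4 h replicate 2 (adjusted p = 0.279). It also missed the threshold at 0.93 without any 1 array of 0 h, of *ime2Δ* at 2 h, or of WT at 6 h (adjusted p = 0.052 to 0.0555). The *SPC24* call was further lost under 75th percentile scaling (0.91, adjusted p = 0.0552) and after normexp (0.9, adjusted p = 0.0877). A fit to the compared groups alone lost both *SPC24* (adjusted p = 0.104) and *SPC25* (adjusted p = 0.054). With the replicate number, which is also the slide, as a block, *NUF2* (0.41, adjusted p = 0.0404) and *MTW1* (0.80, adjusted p = 0.00426) passed too, for 7 of 9 members. *MTW1* also passed without *ime2Δ* 4 h replicate 2 (1.13, adjusted p = 0.0457).

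At 6 h, 5 of 9 were higher in WT and 1 lower, beside 31.1% and 33.1% of all genes, with medians of 0.80 and -0.10. *SPC25* was higher by 2.55 ± 0.17 (5.86-fold, adjusted p = 4.82e-08), *NDC80* by 1.69 ± 0.22 (3.22-fold, adjusted p = 2.62e-05), and *DSN1* by 1.65 ± 0.19 (3.14-fold, adjusted p = 7.72e-06). *MTW1* (0.89 ± 0.33, adjusted p = 0.0294) and *NSL1* (0.80 ± 0.20, adjusted p = 0.00359) were higher by less. *DAM1* was lower in WT by 0.75 (SE 0.23, adjusted p = 0.014). *MTW1* missed the threshold under 75th percentile scaling (0.61, adjusted p = 0.107), after normexp (0.69, adjusted p = 0.107), with its first spot alone (0.65, adjusted p = 0.186), without WT 6 h replicate 2 (0.49, adjusted p = 0.277), and without *ime2Δ* 6 h replicate 1 or 2 (0.85 and 0.94, adjusted p = 0.102 and 0.0722). *DAM1* missed it without WT 6 h replicate 1 (-0.57, adjusted p = 0.0996) or *ime2Δ* 6 h replicate 2 (-0.56, adjusted p = 0.112). *NNF1*, at -0.85 and -1.38 in WT and -1.03 and -0.80 in *ime2Δ*, overlapped between the strains, and was called lower in WT under 75th percentile scaling (-0.48, adjusted p = 0.0471), with its second spot alone (-0.44, adjusted p = 0.0365), and without WT 6 h replicate 1 (-0.46, adjusted p = 0.0471). *NDT80* levels parted between the strains at 4 and 6 h and *IME1* levels at 6 h, as given above, and their part in these differences was not tested. Under 75th percentile scaling the median of all genes moved by -0.28 at 6 h, and by -0.19 under quantile normalization, and 35.6% in place of 48.4% of called genes were higher in WT under the former.

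**Figure D3:**
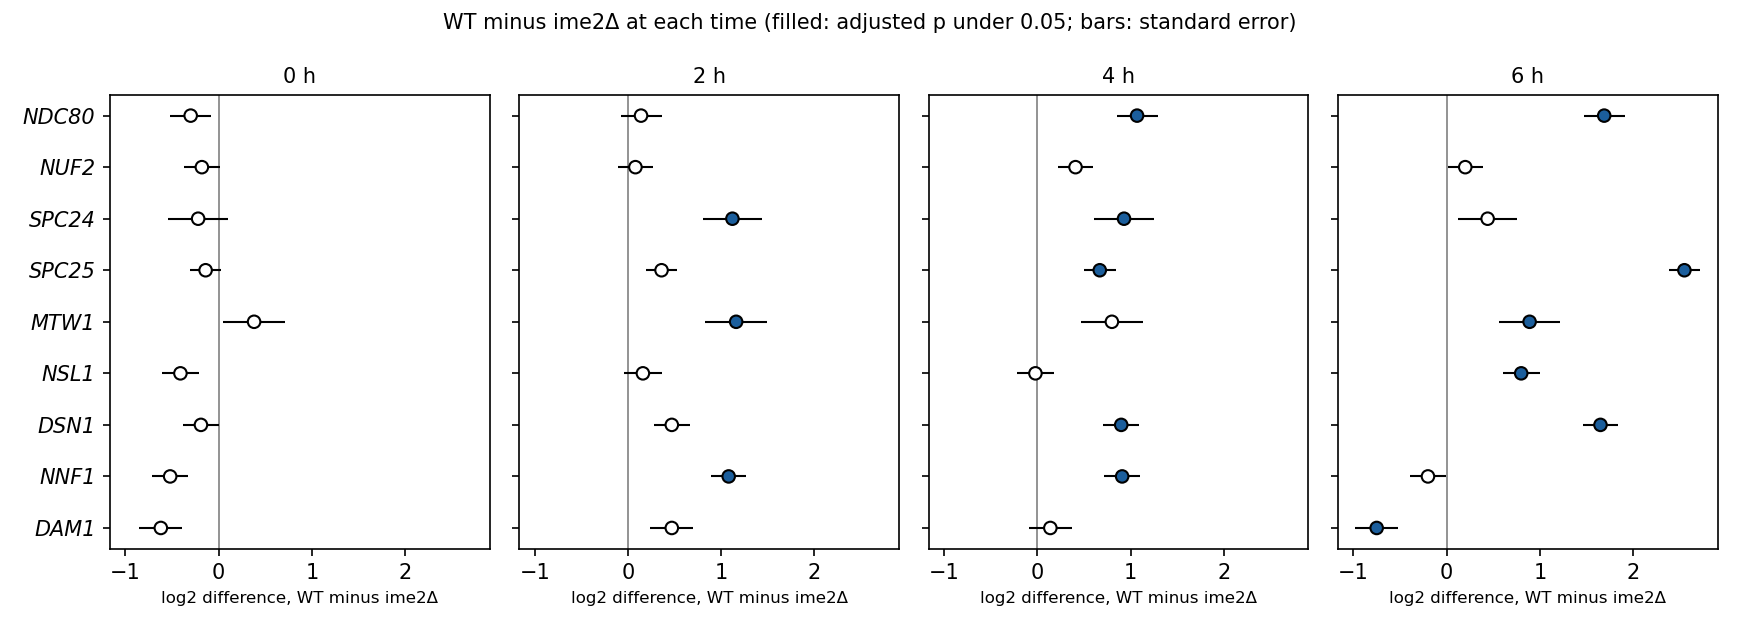
WT minus *ime2Δ* log2 difference of each gene at 0, 2, 4, and 6 h, with standard errors; filled points passed an adjusted p of 0.05. The number of filled points goes from 0 at the start to 3, 5, and 6 at the later times, where *SPC25* ends at 2.55 and *DAM1* at -0.75. Over all 6254 genes tested the number called goes up likewise, from 292 to 850, 1950, and 4013.

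A difference between the strains in the change itself was tested for 2 intervals. From 0 to 2 h, 1 of 9 members changed more upward in WT and 0 more downward, beside 2.46% and 0.863% of all genes, with medians of 0.67 and -0.03. This was *NNF1*, whose change was 1.60 ± 0.26 higher in WT (adjusted p = 0.00568), with 1.85 within the slide of replicate 1 and 1.34 within that of replicate 2. *SPC24* (1.34 ± 0.46, adjusted p = 0.155) passed with the replicate number as a block (adjusted p = 0.0449), for 2 of 9 members. Over all genes, 362 in place of 208 passed with that block. *DAM1* stood at 1.1 ± 0.33 (adjusted p = 0.107). This comparison shares its 0 h arrays with the 0 h comparison of the strains, at which *NNF1* and *DAM1* were lower in WT.

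From 4 to 6 h, 3 of 9 members changed more upward in WT (*SPC25*, *NSL1*, and *DSN1*) and 1 more downward (*NNF1*), beside 21.4% and 15.8% of all genes, with medians of 0.09 and -0.11. The *SPC25* change was 1.88 ± 0.24 higher in WT (adjusted p = 9.41e-05), with 1.48 and 2.28 within the slides of replicates 1 and 2, and passed in every alternative. *NNF1* changed by 1.11 less (-1.11 ± 0.26, adjusted p = 0.00659), and missed the threshold with its first spot alone (-0.88, adjusted p = 0.0689). *NSL1* (0.82 ± 0.28, adjusted p = 0.0375) and *DSN1* (0.75 ± 0.26, adjusted p = 0.0405) both missed it under 75th percentile scaling (0.56 and 0.49, adjusted p = 0.109 and 0.134), in a fit to the compared groups alone (adjusted p = 0.0864 and 0.104), and without 1 of *ime2Δ* 4 h replicate 1 (0.68 and 0.74), *ime2Δ* 6 h replicate 2 (0.69 and 0.64), WT 6 h replicate 2 (0.61 and 0.67), or either WT 2 h array (0.82 and 0.75). Under 75th percentile scaling 1 member thus changed more upward in WT, *SPC25*, and 2 more downward, *NNF1* and *DAM1*. With its first or second spot alone, *NSL1* missed the threshold (0.74 and 0.89, adjusted p = 0.0881 and 0.0714). *DSN1* missed it under quantile normalization (0.49, adjusted p = 0.136) and with its second spot alone (0.69, adjusted p = 0.0719). *NSL1* was also lost without WT 4 h replicate 1 (0.73, adjusted p = 0.102), and *DSN1* without WT 4 h replicate 2 (0.51, adjusted p = 0.141), *ime2Δ* 4 h replicate 2 (0.75, adjusted p = 0.0821), or either *ime2Δ* 2 h array (0.75, adjusted p = 0.054). *DAM1* lay just outside the threshold (-0.89 ± 0.33, adjusted p = 0.0512), passed with the replicate number as a block (adjusted p = 0.0359) and under 75th percentile scaling (-1.15, adjusted p = 0.0169), and passed without any 1 of WT 0 h replicate 1 or 2, WT 4 h replicate 1, WT 6 h replicate 2, *ime2Δ* 4 h replicate 2, or *ime2Δ* 6 h replicate 1 (-1.08 to -0.89). Under 75th percentile scaling the median of all genes moved by -0.26, and 38.7% in place of 57.5% of called genes changed more upward in WT, beside 46.9% under quantile normalization.

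Over all 11 comparisons, 41 of 99 member differences passed, and all 41 had the same sign within each slide. Of 6254 genes, from 208 (strain difference in the 0 to 2 h change) to 4013 (strains at 6 h) were called per comparison. These were 2.46% of all genes higher and 0.863% lower in the former, and 31.1% and 33.1% in the latter. Whether the members passed more often than all genes was not tested. The comparisons share arrays, so the 99 differences are not separate evidence. Across the 26 alternative settings, 22 of the 41 passed in every one and 0 changed sign. Those 22 include the *SPC24*, *NNF1*, and *DAM1* rises by 2 h in WT, the *NDC80* rise from 2 to 4 h, the 4 to 6 h changes of *SPC25*, *NSL1*, *NNF1*, and *DAM1*, and the 6 h strain differences of *SPC25*, *NDC80*, *DSN1*, and *NSL1*.

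The courses of the members were compared with each other and with the array over the 16 arrays, which share cultures' stages and slides, so the correlations describe likeness only. Between members, Pearson's r was 0.869 for *NDC80* and *NUF2* and 0.192 for *SPC24* and *SPC25*, the 2 pairs of the Ndc80 complex. *DSN1* had r = 0.863 with *NDC80* and 0.871 with *SPC25* of the other complex, and 0.0315 with *NNF1* of its own. *NSL1* and *DAM1* had the most negative value, r = -0.62. The 3 genes of the array most like *NDC80* were *SAM50* (r = 0.981), a subunit of the sorting machinery of the mitochondrial outer membrane, *HUL4* (r = 0.977), which encodes a protein like HECT ubiquitin ligases, and *SGO1* (r = 0.972), encoding shugoshin, the protector of centromeric cohesin. On the RefSeq R64 map the 9 members lie on 8 chromosomes, with *NDC80* and *DSN1* both on IX.

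Other kinetochore genes were described from lists of subunits. Of the other 8 genes of the Dam1 complex, 7 rose, as *DAM1* did, and 1 fell in the first WT interval (median 1.18), beside 22.2% and 27.2% of all genes, led by *DUO1* (2.08 ± 0.36, adjusted p = 0.000422) and *DAD2* (1.64 ± 0.15, adjusted p = 4.5e-06). From 4 to 6 h, 3 of these 8 rose and 0 fell (median -0.28), beside 26.4% and 28.7% of all genes, while *DAM1* fell. The largest rises were those of *DAD3* (2.31 ± 0.19, adjusted p = 1.13e-06) and *DAD2* (1.37 ± 0.15, adjusted p = 1.25e-05). At 6 h *DAD3* was 2.93 ± 0.19 higher in WT than in *ime2Δ* (adjusted p = 5.1e-08), and 4 of the 8 genes were higher and 0 lower, beside 31.1% and 33.1% of all genes.

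*SPC105* and *KRE28* encode the third part of the outer kinetochore core, which recruits checkpoint proteins. *SPC105* rose by 1.11 ± 0.18 from 0 to 2 h in WT (adjusted p = 0.000287), and *KRE28* by 1.94 ± 0.38 from 4 to 6 h (adjusted p = 0.00102). Both were higher in WT at 6 h, by 1.28 ± 0.18 and 1.66 ± 0.38 (adjusted p = 5.13e-05 and 0.00192), beside 31.1% of all genes higher and 33.1% lower. In each interval the other gene of the pair did not pass.

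Of 14 inner kinetochore genes, 9 rose and 1 fell in WT from 0 to 2 h (median 0.76), beside 22.2% and 27.2% of all genes, with *CTF3*, of the Ctf19 complex, at 2.05 ± 0.26 (adjusted p = 4.42e-05). From 4 to 6 h, 4 rose and 6 fell (median -0.38), beside 26.4% and 28.7% of all genes, so that the share that rose was near that of all genes. Among these were *AME1*, whose product binds the Mtw1 complex, at 2.17 ± 0.15 (adjusted p = 2.96e-07) and *MIF2*, the yeast CENP-C, at -1.21 ± 0.25 (adjusted p = 0.00159). *CSE4*, the centromeric histone H3, was higher in WT at 6 h by 2.11 ± 0.20 (adjusted p = 1.87e-06). At that time 5 of the 14 genes were higher in WT and 3 lower (median -0.16), beside 31.1% and 33.1% of all genes. Of the 4 genes of the CBF3 complex, which binds centromeric DNA, 1 rose from 0 to 2 h, *CTF13* (1.48 ± 0.41, adjusted p = 0.00972), and 2 fell from 4 to 6 h, *CBF2* and *CEP3* (-0.73 and -0.68, adjusted p = 0.00325 and 0.00423). Beside 22.2% of all genes higher in the first interval, the share of this list that rose was near the background. From 4 to 6 h, 28.7% of all genes were lower. *CTF13* lay far below the median gene, at -7.06 and -7.39 in WT at 0 h and -5.81 and -5.69 at 2 h. It was well above background on those arrays.

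Of 9 genes of the spindle checkpoint and the Aurora B kinase complex, 7 rose and 0 fell in WT from 0 to 2 h (median 0.81), beside 22.2% and 27.2% of all genes. *IPL1*, the Aurora B kinase itself, rose by 2.48 ± 0.22 (adjusted p = 3.89e-06) and the checkpoint gene *BUB3* by 1.61 ± 0.23 (adjusted p = 0.000106). From 4 to 6 h, 3 rose and 2 fell (median 0.11), near the 26.4% and 28.7% of all genes, and *MPS1*, a kinase of the checkpoint and of spindle pole body duplication, rose by 2.76 ± 0.17 (adjusted p = 9.78e-08). In *ime2Δ*, *IPL1* rose by 2.40 ± 0.22 from 0 to 6 h (adjusted p = 3.36e-06), and 7 of the 9 genes rose and 0 fell (median 0.97), beside 24.5% and 30.1% of all genes.

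**Figure D4:**
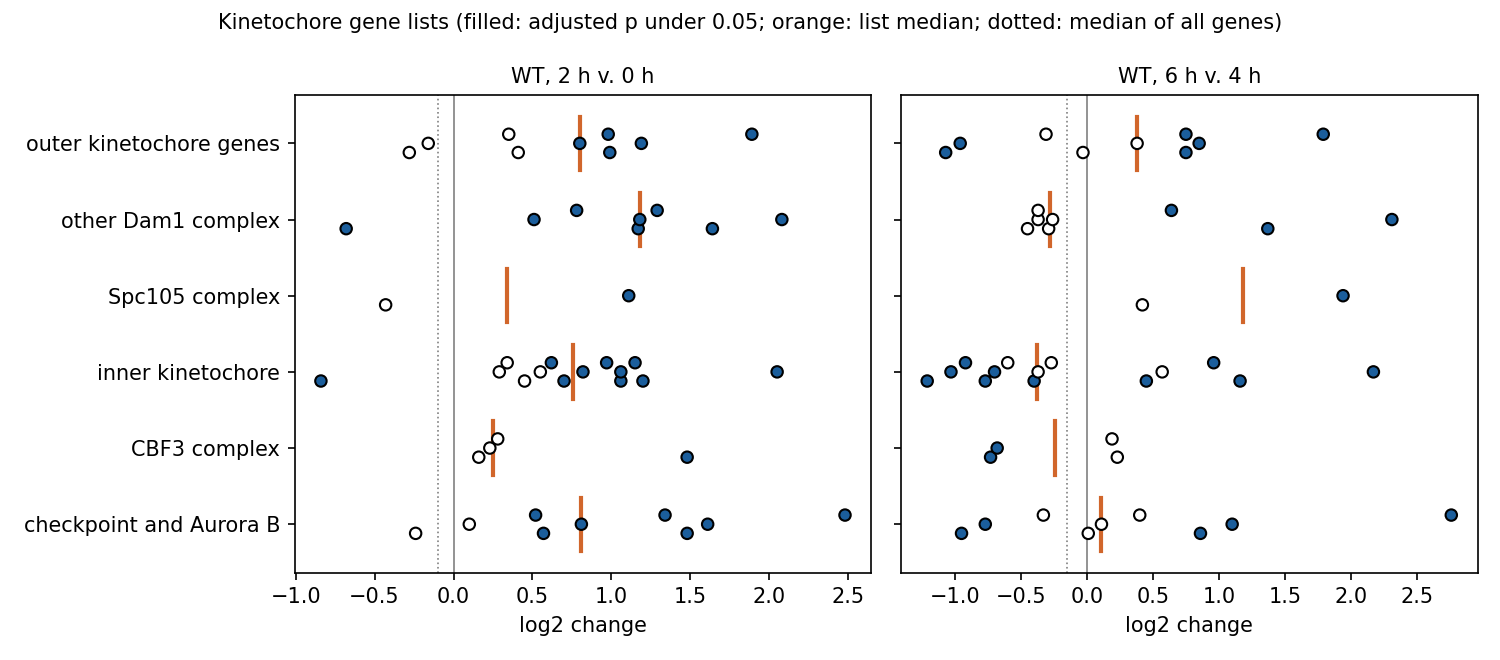
Log2 change of each measured gene (points) of 6 kinetochore gene lists in WT from 0 to 2 h and from 4 to 6 h; filled points passed an adjusted p of 0.05, orange bars are list medians, and the dotted line is the median of all genes (-0.10 and -0.15). From 0 to 2 h the 6 medians lie between 0.25 and 1.18, and from 4 to 6 h between -0.38 and 1.18.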

How the data were processed

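Total RNA of each culture was amplified, labelled with Alexa555, and hybridized to single color Agilent yeast arrays, as the study's methods and labels state. The authors deposited spot signal intensity from Agilent Feature Extraction 10.7.1.1, after background subtraction and detrending and before scaling between arrays. The authors also deposited log2 values normalized to each array's median, which were used as an alternative. Here log2 of the processed intensity was averaged over the 2 spots of a probe, without spots marked as non-uniform or population outliers (0 to 13 per array, 0 of the members), and the array median was subtracted. No spot sequences or promoters were used, and the motif search was not run.

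Groups follow the labels of each array. The 8 groups were fitted together with limma 3.58.1 (lmFit, eBayes) in R 4.3.3, with 8 residual and 4.58 prior degrees of freedom. Calls used a Benjamini-Hochberg adjusted p under 0.05 over 6254 genes, without *IME2* and *TRP1*. The fit has no term for aliquots of 1 culture over time. The number of arrays, 2 per group, limits the precision. The members, gene lists, and tests were chosen with earlier results of these data known. All members are named, with the 3 genes of highest correlation with *NDC80*, at most 2 called genes with the largest difference per list and comparison, and 4 genes as checks of strain and stage. *WIP1* and *NBL1* of the lists were not analysed here. Names follow RefSeq for 5756 of the 6256 genes. To see whether replicate numbers pair the arrays, deviations of replicate 1 from the group mean were correlated between groups. The 28 values of r ran from 0.0752 to 0.535, with 26 over 0.1, so the block on replicate number (slide) is an alternative.

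As alternatives, arrays were scaled to their 75th percentile or by quantiles, background was corrected with normexp (offset 50), the deposited normalized values replaced those computed here, dim probes were filtered out (well above background on fewer than 8 arrays), the replicate number entered as a block, the eBayes prior was given a trend and made robust, only the groups compared were fitted, and each of 16 arrays was left out. Use of 1 spot of each probe alone was added after seeing the data. The fit was tested on simulated data.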

Additional observations from a re-analysis of the deposited data

Results flagged for a closer look

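For 5 results, the change over an interval differed between the strains by a test of that difference in the limma fit. From 0 to 2 h the *NNF1* change was higher in WT by 1.60 on the log2 scale (adjusted p = 0.00568), with a rise in WT and a fall in *ime2Δ* on both slides. From 4 to 6 h the *SPC25* change was higher in WT by 1.88 (adjusted p = 9.41e-05), the *NSL1* change by 0.82 (adjusted p = 0.0375), and the *DSN1* change by 0.75 (adjusted p = 0.0405). Over the same interval the *NNF1* change was lower in WT, at -1.11 (adjusted p = 0.00659). In each case both slides gave the same sign, which is not separate evidence because each call rests on both slides. The *NSL1* and *DSN1* calls depend on single arrays, on the scaling, and on the spot used, as given above.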

How the results depend on the processing

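With 2 arrays per group, single arrays decided several calls. Counts over all genes also moved when an array was left out, as given below for some comparisons, so the ranges are not particular to the members. Leaving out each array in turn, the members called ranged from 3 to 5 (WT, 0 to 2 h), 1 to 2 (WT, 2 to 4 h), 5 to 6 (WT, 4 to 6 h), 1 to 3 (*ime2Δ*, 0 to 2 h), 3 to 6 (*ime2Δ*, 0 to 6 h), 1 to 3 (strains at 2 h), 3 to 6 (at 4 h), 4 to 6 (at 6 h), and 2 to 5 (strain difference in the 4 to 6 h change). For WT from 2 to 4 h, 1 member was called after normexp, in a fit to the compared groups alone, and with the first spot. For the strains at 2 h, 1 was called after normexp and with either spot. For the strains at 4 h, 3 were called in a fit to the compared groups alone. For the strain difference in the 4 to 6 h change, 2 were called in that fit and with the second spot. With the replicate block, 2 members in place of 1 passed for the strain difference in the 0 to 2 h change, and 0 of the 41 calls were lost. By the authors' normalized values 0 calls were lost and 0 gained.

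Member differences that were not called changed sign as follows. *MTW1* in WT from 4 to 6 h was at -0.01 with the first spot and ranged from -0.02 (without WT 6 h replicate 2) to 0.79 over arrays left out. Scaled to the 75th percentile, *DSN1* in *ime2Δ* from 0 to 2 h was at 0, and *NUF2* between strains at 6 h at -0.08. *NNF1* between strains at 6 h was at 0.03 with the first spot and ranged from -0.46 to 0.07 (without WT 6 h replicate 2) over arrays left out. A further 21 differences were under 1 SE, of which 15 changed sign in some setting and 0 passed in any. The cause was not tested.

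Over all genes, the 292 calls between strains at 0 h became 181 after normexp, 581 with the replicate block, 99 in the fit to the compared groups alone, 160 with the first spot, and 80 without *ime2Δ* 0 h replicate 1. The 208 calls for the strain difference in the 0 to 2 h change became 114, 362, and 112 (normexp, replicate block, first spot) and 65 without *ime2Δ* 0 h replicate 1. The 1629 calls in WT from 2 to 4 h became 701 without WT 2 h replicate 1, the 850 between strains at 2 h 381 without WT 2 h replicate 2, and the 1950 at 4 h 972 without *ime2Δ* 4 h replicate 1.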
